A study of Daphnia magna with 15 samples.

Results

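Daphnia magna, the freshwater water flea used as a test animal in aquatic toxicology, was exposed to cisplatin and compared with an unexposed set named control B, with 3 libraries in each group. These 6 libraries were taken by their labels from the 15 of the series. Each library held RNA of whole neonates of a laboratory strain, 48 to 72 h old, kept in 25 mL of medium for 24 h in pools of 20 to 25 animals. The cisplatin medium held 10 ng/L of the drug, control B held none, and neither group was fed during the exposure. The remaining libraries came from etoposide at 300 ng/L, imatinib mesylate at 2000 ng/L and a further unexposed set named control A, 3 of each. The labels do not state which control set was run beside cisplatin, nor whether replicates came from different cultures, and p-values therefore rest on the spread among these libraries, which may be technical.

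Cisplatin is a platinum drug that binds purine bases and crosslinks neighbouring or opposite bases of DNA. The crosslinks block replication and transcription, are removed mainly by nucleotide excision repair, and in animal cells can set off checkpoint signalling and apoptosis. Platinum also binds thiols such as glutathione and metallothionein. The question the comparison addresses is whether a concentration chosen, per the labels, for its genotoxic effect also changes transcript levels in the whole animal. In RNA of whole animals, fewer cells of a type and less RNA per cell cannot be told apart.

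The deposited values are FPKM, fragments scaled to the length of a transcript and the size of the library, for 33982 assembled transcripts in 18877 loci. The loci carry assembly identifiers that the files do not pair with gene names. By identifier 0 of them matched the RefSeq gene table, which does not use assembly identifiers of this kind, so no other count could arise. That table also names its sequences differently. Neither roles nor markers of the neonate could therefore be checked, and features are given by identifier and position. For each locus the FPKM of its transcripts were added up. The 18098 loci that averaged 1 FPKM or more across all 15 libraries were compared on the log2(FPKM + 1) scale, on which a difference understates the change of low loci.

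Locus levels with cisplatin lay close to those of control B. Of the 18098 loci, 0 differed between the groups (0% called; limma, smallest adjusted p = 0.105), and 674 (3.72%) had an unadjusted p under 0.05, where 905 are expected if no locus differed; 329 of them (1.82%) were higher with cisplatin and 345 (1.91%) lower. With the replicate number as a block, 962 loci had an unadjusted p under 0.05 and 0 passed after adjustment by limma. The median difference was 0.01 and the median absolute difference 0.10 on the log2(FPKM + 1) scale, and 90% of loci are within 0.41. In 8.17% of loci the 3 cisplatin values did not overlap the 3 control B values, 743 loci above and 736 below. Such separation of 3 from 3 has a two-sided exact permutation p of 0.1, so a share of this size needs no difference. In same-numbered pairs of libraries, 2343 loci (12.9%) were higher with cisplatin in all 3 and 2171 (12%) lower in all 3. By over 2-fold, 8 loci (0.0442%) were higher and 46 (0.254%) lower in all 3. These shares were not tested.

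**Figure D1:**
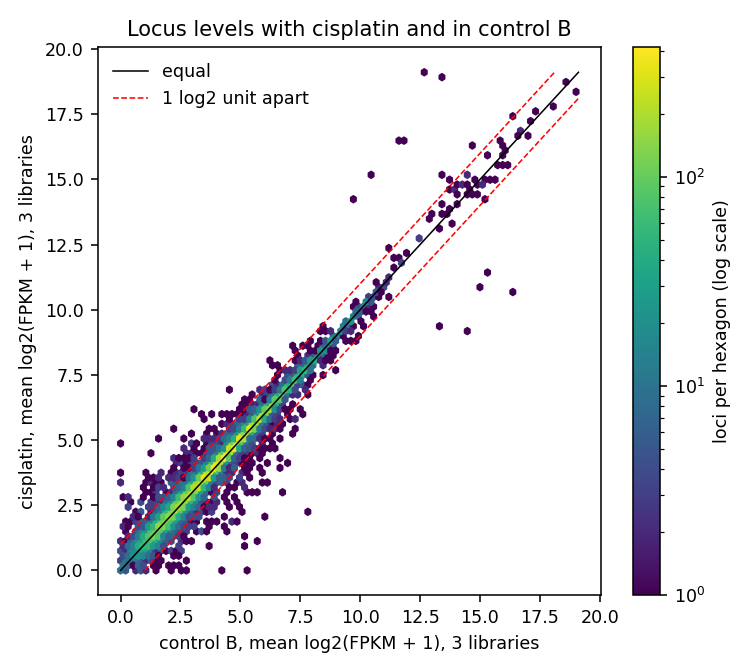
Mean level of each of 18098 loci in control B (horizontal axis) and with cisplatin (vertical axis), both as mean log2(FPKM + 1) of 3 libraries; colour gives the number of loci per hexagon on a log scale. Most loci lie along the line of equality, and 384 lie more than 1 log2 unit from it.

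On the log2(FPKM + 1) scale, the 95% interval stayed within 2-fold in either direction for 15176 loci (83.9%) and within 1.5-fold for 11393 (63%). With a pseudocount of 0.1, 13782 loci had an interval within 2-fold. The scale narrows the intervals of low loci, so bands of level are not on an equal footing. How narrow the interval was depended on level and length. Among the 5474 loci of 20 to 100 FPKM, the median half-width was 0.24 on the log2(FPKM + 1) scale and 88.5% of intervals lay within 2-fold. Among the 4242 loci of 1 to 5 FPKM, the half-width was 0.53 and 75.6% lay within 2-fold. Loci over 5000 bp gave 90% within 2-fold, those of 300 to 1000 bp 72.4%, those of 100 to 300 bp 33.5%, and the 73 loci under 100 bp 1.37%.

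Short loci also made up much of the upper end. Of the 148 loci over 1000 FPKM, 76 span under 300 bp, and 45.3% of all 148 had an interval within 2-fold; for the 72 that span 300 bp or more it was 91.7%. Group means stood more than 2-fold apart on the log2(FPKM + 1) scale at 384 loci (2.12%), 205 higher and 179 lower with cisplatin. In 278 of these the groups overlapped, and 127 had an unadjusted p under 0.05. Loci with several transcripts were no wider apart than the rest, since the 136 loci with 10 or more transcripts had a median absolute difference of 0.06 and the 11411 with 1 transcript 0.11.

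**Figure D2:**
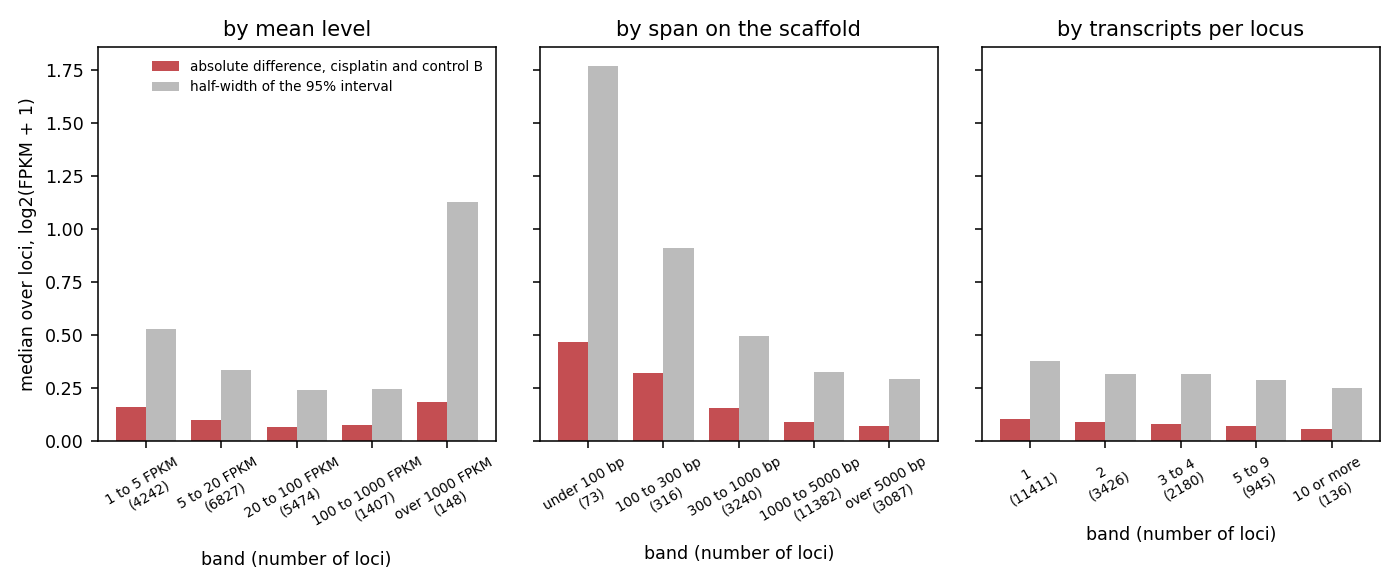
Median absolute difference between cisplatin and control B (red bars) and median half-width of its 95% interval (grey bars), both on the log2(FPKM + 1) scale, for loci grouped by mean FPKM, by span and by number of transcripts, with the number of loci in brackets. In every band the grey bar exceeds the red one, and it is highest, at 1.77, for the 73 loci under 100 bp.

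The most abundant loci of at least 300 bp show how steady the levels were. XLOC_012387 (scaffold02078, 2 to 2072) measured 4069, 3296 and 3427 FPKM in control B and 3496, 3569 and 3520 with cisplatin. The control B values spread on both sides of the cisplatin ones. XLOC_010493 (scaffold01841, 1813 to 5947) measured 3603, 3207 and 3168 FPKM in control B and 3331, 3557 and 3400 with cisplatin. The neighbouring loci XLOC_008510 (scaffold01585, 32298 to 44538) and XLOC_008509 (scaffold01585, 21091 to 31909) had 3280 ± 229.8 and 2885 ± 353.1 FPKM in control B against 3401 ± 91.42 and 3079 ± 204.3 with cisplatin (SD, n = 3). The groups overlapped at all 4 loci, whose log2 differences ran from -0.02 to 0.10, with 95% intervals between -0.35 and 0.43.

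The loci with the smallest p among those that span 300 bp or more and show no overlap are given by library, although none passed the threshold. XLOC_001566 (scaffold00628, 409 to 719) measured 7.56, 4.70 and 6.26 FPKM in control B and was listed at 0 in all 3 cisplatin libraries. It was the single locus listed at 0 in one group and above 1 FPKM throughout the other. Its difference was -2.82 on the log2(FPKM + 1) scale (SE 0.188; limma, adjusted p = 0.105). XLOC_001566 was also listed at 0 in control A 1, etoposide 3 and imatinib 3, and reached 160.5 FPKM in another control A library, so a value of 0 was not particular to cisplatin. Those 3 libraries also had the most loci listed at 0 in their groups (1375, 289 and 233), and a link was not tested. With a pseudocount of 0.1 XLOC_001566 passed (limma, adjusted p = 0.0418). It did not with a pseudocount of 5 (limma, adjusted p = 0.558), the replicate block (0.721) or all 15 libraries fitted, nor with any single library left out.

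XLOC_012526 (scaffold02098, 9478 to 10025) measured 2.177, 4.674 and 4.205 FPKM in control B and at most 0.00025 with cisplatin, a difference of -2.18 (SE 0.252; limma, adjusted p = 0.999). All 3 control B libraries lay above every cisplatin library. A second locus on the same interval, XLOC_012537, measured 1.67, 0.531 and 8.23e-05 FPKM in control B and 3.71, 2.75 and 5.38 with cisplatin. It is higher with cisplatin where XLOC_012526 is lower, and how reads of the interval were divided between the pair was not tested.

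XLOC_002373 (scaffold00820, 5125 to 5778) measured 0.000953, 0.0046 and 0.0019 FPKM in control B and 7.78, 24.9 and 5.20 with cisplatin, a difference of 3.48 (SE 0.521; limma, adjusted p = 0.999). All 3 cisplatin libraries lay above control B. So did all 3 control A libraries, at 0.0326, 23.9 and 15.9 FPKM, and imatinib 1, at 3.99 FPKM. Etoposide 1, etoposide 3 and imatinib 3 exceeded control B as well, though only at 0.00479, 0.00642 and 0.00733 FPKM. XLOC_002378, on the same interval, measured 21.2, 20.7 and 20.2 FPKM in control B and 15.2, 0.0723 and 15.5 with cisplatin. The lowest of these, cisplatin 2, is the library in which XLOC_002373 was highest.

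XLOC_016788 (scaffold02941, 1 to 839) has its interval to itself. It measured 6.42, 6.24 and 5.72 FPKM in control B and 9.42, 10.1 and 10.03 with cisplatin. Both groups were tight and did not overlap, and the difference of 0.61 equals 1.52-fold on the log2(FPKM + 1) scale (SE 0.0956; 95% interval 0.37 to 0.84; limma, adjusted p = 0.999). With etoposide this locus ranged from 3.26 to 9.44 FPKM, with imatinib from 3.87 to 6.12 and in control A from 1.76 to 5.61. The highest etoposide library therefore reached the lowest cisplatin one.

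**Figure D3:**
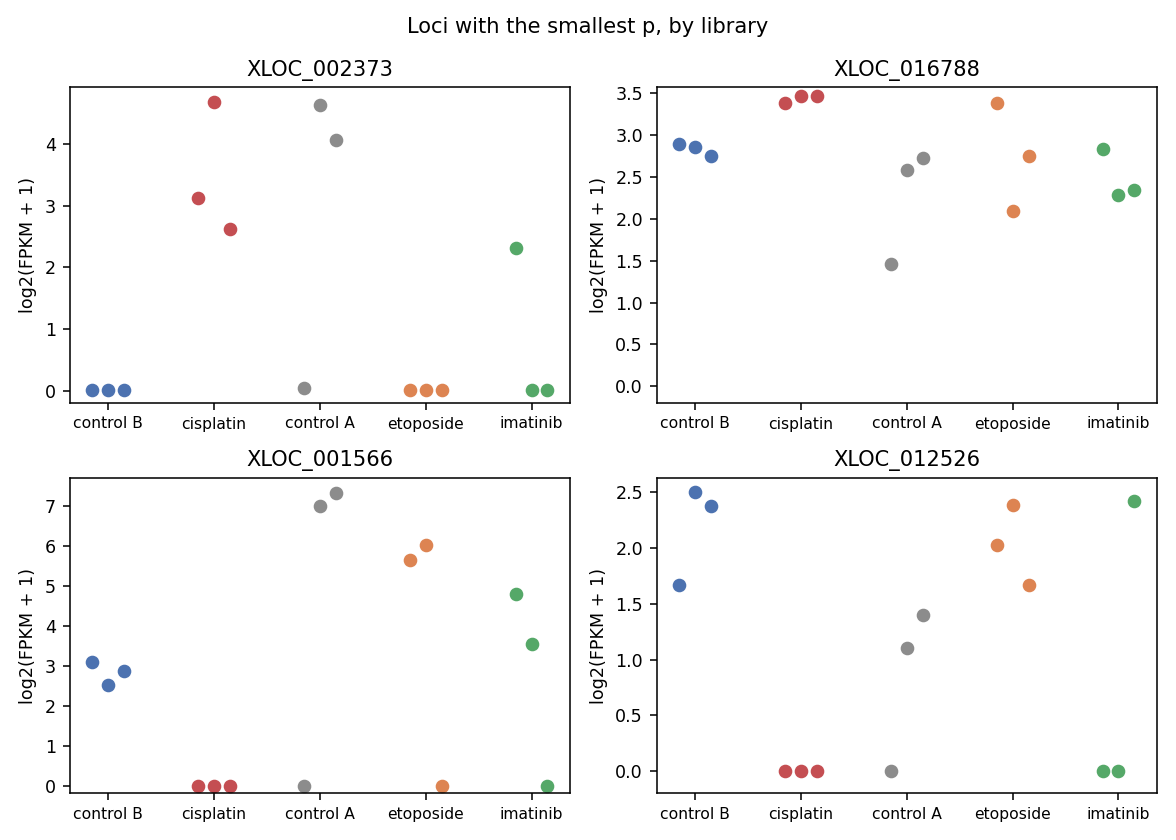
Level of 4 loci in each of the 15 libraries, as log2(FPKM + 1), by group; each point is a library. The 3 cisplatin points lie apart from the 3 control B points in each panel, while control A and imatinib points spread from 0 upward at XLOC_002373, XLOC_001566 and XLOC_012526, and etoposide points do so at XLOC_001566.

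At the level of single transcripts a few features did pass. Of 26026 transcripts tested, 2 differed between cisplatin and control B (0.00768% called; limma, adjusted p under 0.05), both higher with cisplatin, and 1045 (4.02%) had an unadjusted p under 0.05, where chance alone gives 1301. Of these, 520 (2%) were higher and 525 (2.02%) lower with cisplatin. In 8.92% of transcripts the groups did not overlap, which sets the scale for the values below. The transcripts TCONS_00029578 and TCONS_00021975 lie in loci whose totals were level between the groups. With the replicate number as a block, 0 transcripts passed (limma; 1319 at an unadjusted p under 0.05), and both log2 differences were unchanged (adjusted p = 0.8 for each by limma). In the fit of all 15 libraries neither passed (limma, adjusted p = 1 for TCONS_00029578 and 0.141 for TCONS_00021975), and with a pseudocount of 5 TCONS_00021975 did not (0.0597).

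TCONS_00021975 is one of the 2 transcripts of XLOC_012265 (scaffold02053, 37089 to 41544), whose interval also holds XLOC_012270. It rose from 0.0629, 0.034 and 0.174 FPKM in control B to 18.7, 27.5 and 19.3 with cisplatin (log2 difference 4.37, SE 0.211; limma, adjusted p = 0.0171). Its partner TCONS_00021974 measured 59.7, 58.1 and 55.5 FPKM in control B and 37, 32.2 and 39.1 with cisplatin. The locus total was 57.87 ± 2.061 FPKM in control B and 57.91 ± 2.049 with cisplatin (SD, n = 3), and its 95% interval ran from -0.15 to 0.15. TCONS_00021975 thus made up 0.158% ± 0.135 of the locus in control B and 37.6% ± 7.35 with cisplatin. The same transcript held 99.6% ± 0.229 in control A, from 33% to 65.1% with etoposide and from 5.01% to 47.5% with imatinib, so the unexposed sets lay at opposite ends of the range. XLOC_012270 measured 416.2, 424 and 292.5 FPKM in control B and 434.5, 515.3 and 401.3 with cisplatin, so the locus total is a small part of its interval. How reads were divided between these loci was not tested.

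XLOC_016447 (scaffold02879, 28356 to 31106) has 8 transcripts. TCONS_00029578 rose from at most 0.000709 FPKM in the control B libraries to 21.7, 17.7 and 19.9 with cisplatin (log2 difference 4.37, SE 0.168; limma, adjusted p = 0.00914), which is 7.77% ± 0.735 of the locus. The locus total was 255 ± 8.971 FPKM in control B and 254.1 ± 11.45 with cisplatin (SD, n = 3). Its transcript TCONS_00029582 measured 28.1, 39.4 and 37 FPKM in control B and 18.1, 15.9 and 15.7 with cisplatin, a log2 difference of -1.02 that did not pass (limma, adjusted p = 0.405). In unexposed control A the libraries held 6.42, 1.04e-14 and 10.7 FPKM of TCONS_00029578, and with imatinib 12.7 FPKM in imatinib 2 against 2.5e-09 or less in the others. Values near 20 FPKM stood in the cisplatin libraries alone of the 15.

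The 2 transcripts with the smallest p in the other direction did not pass at a pseudocount of 1 with the filter of 1 FPKM. With a pseudocount of 0.1 both did (limma, adjusted p = 0.0433 for TCONS_00016111 and 0.0421 for TCONS_00013997). Without a filter both did as well (limma, adjusted p = 0.0312 and 0.0414). Neither passed with the replicate block (limma, adjusted p = 0.8 for each), a pseudocount of 5 (0.249 for each) or all 15 libraries fitted. Leaving out any single library brought neither past the threshold (limma, adjusted p from 0.0965 to 0.296). TCONS_00016111, of the 3 in XLOC_009010 (scaffold01640, 6724 to 8863), measured 8.52, 7.80 and 5.61 FPKM in control B and at most 0.0553 with cisplatin (limma, adjusted p = 0.076). There TCONS_00016109 measured 0.125, 0.027 and 3.24 FPKM in control B and 9.83, 7.10 and 8.61 with cisplatin, and the locus totals were 14.98 ± 1.773 and 15.6 ± 0.8314 FPKM. TCONS_00013997, of the 5 in XLOC_007812 (scaffold01495, 4055 to 7359), measured 6.42, 11 and 10.2 FPKM in control B and at most 0.00846 with cisplatin (limma, adjusted p = 0.076), with totals of 35.04 ± 3.137 and 34.51 ± 1.71 FPKM (SD, n = 3). In control A it ranged from 0.0233 to 7.4 FPKM, with etoposide from 2.54 to 8.55 and with imatinib from 0.00466 to 4.72. TCONS_00016111 ranged from 6.81 to 11.1 FPKM in control A, from 0.0368 to 8.55 with etoposide and from 0.906 to 5.84 with imatinib.

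**Figure D4:**
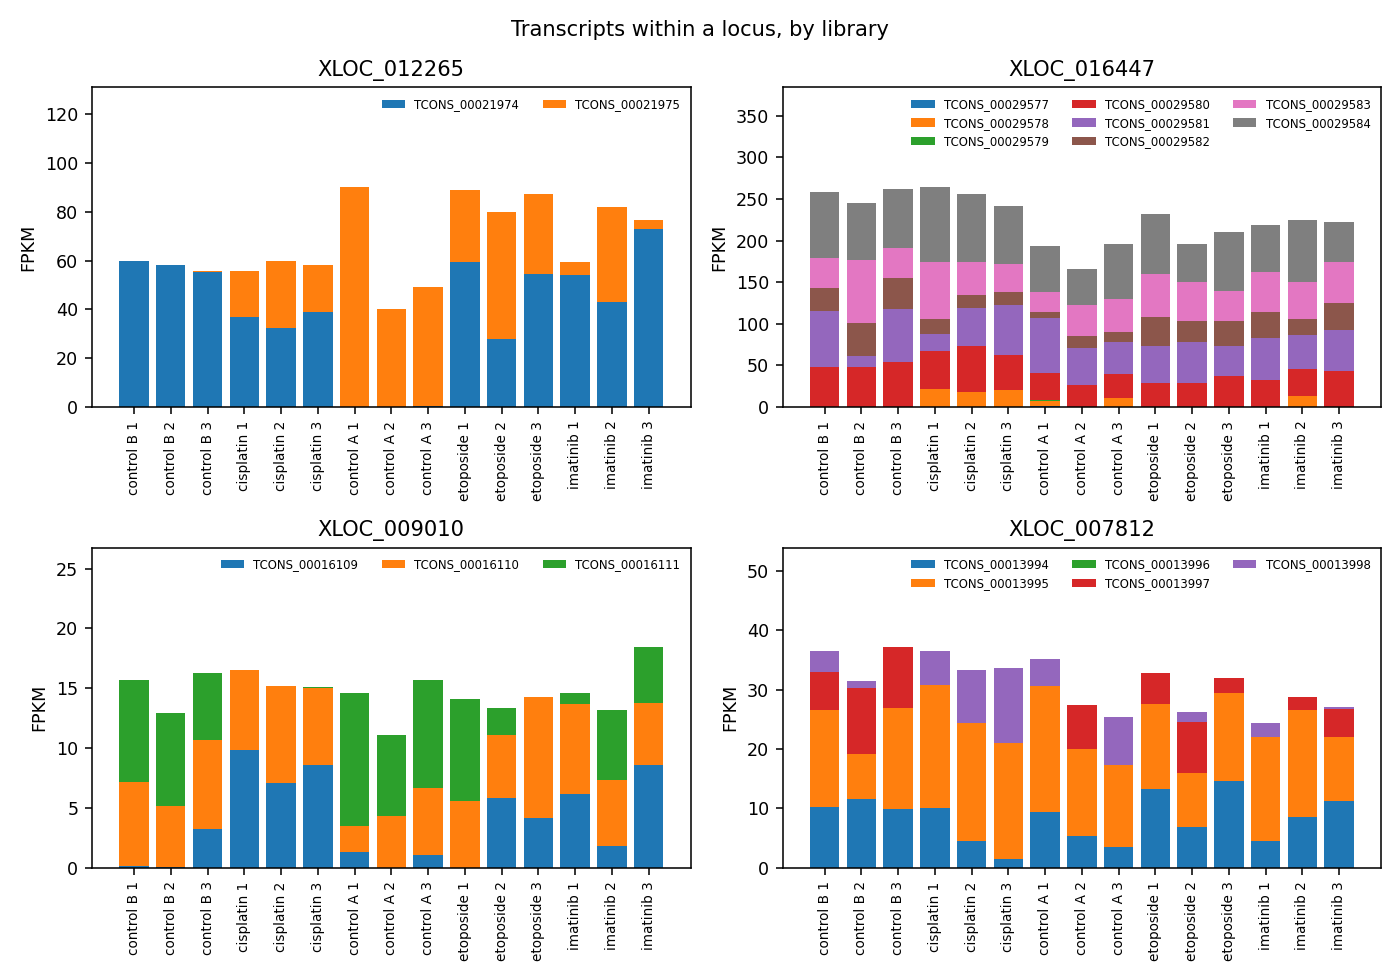
FPKM of each transcript (colours) stacked within 4 loci, for the 15 libraries on the horizontal axis, with control B and cisplatin first. Bar heights match between control B and cisplatin while the make-up differs, most plainly at XLOC_012265, where control A consists almost wholly of the transcript that control B scarcely holds.

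The make-up of a locus was also tested apart from its total, as the log2 ratio of a transcript to the other transcripts of its locus. Of 13387 transcripts in 5267 loci, 3 differed (0.0224% called; limma, adjusted p under 0.05) and 718 (5.36%) had an unadjusted p under 0.05, against 669 by chance alone, 346 (2.58%) higher and 372 (2.78%) lower. The 3 are transcripts already described, and those of TCONS_00021974 and TCONS_00021975, the pair that makes up XLOC_012265, are the same ratio with opposite sign. In every locus made up of a pair, both members carry the same difference with opposite sign. Their p-values differ, since the variance trend followed the mean level of each transcript, so a member can be counted without the other. The balance of higher and lower in the counts above is therefore partly built in. TCONS_00021974 fell by 5.04 on the log2 ratio scale (SE 0.257; limma, adjusted p = 0.00911), and TCONS_00021975 and TCONS_00029578 rose by 5.04 and 4.49 (limma, adjusted p = 0.0308 for each). With the replicate block 0 passed (limma; adjusted p = 0.339 for TCONS_00021974). TCONS_00015430, next in line among those lower with cisplatin, made up 100% of XLOC_008616 (scaffold01593, 8236 to 9746) in control B and 95.8% ± 0.935 with cisplatin (limma, adjusted p = 0.13). Its share was 74%, 96.6% and 100% in control A, 94.2% to 98.4% with etoposide and 97.4% to 100% with imatinib.

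The calls of single transcripts depended on the libraries included. Leaving out any single one of the 6 ended the calls of TCONS_00029578 and TCONS_00021975, in levels (limma, adjusted p from 0.054 to 0.178) and in ratios (0.0636 to 0.256). The sizes moved little, from 4.30 to 4.44 in levels for TCONS_00029578 and from 4.45 to 5.17 in ratios for both. TCONS_00021974 kept its call without control B 1 or cisplatin 2 and lost it without the others (0.053 to 0.154). Without cisplatin 3, 3 other transcripts passed in levels, and without control B 1, 4 others passed in ratios. Those 4 came as opposite values, 7.54 and -7.54 for TCONS_00012458 and TCONS_00012459, and 7.11 and -7.11 for TCONS_00033390 and TCONS_00033391. Cufflinks, as background, divides reads that match several transcripts by a likelihood estimate, and its part in these values was not tested.

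Such on-off values were not frequent. In the tested transcripts, 16 (0.0615%) were over 1 FPKM in all cisplatin libraries and under 0.1 FPKM in all control B ones, and 29 (0.111%) showed the opposite. Of the 16, 15 lie in loci with other transcripts, and in all 15 the locus totals of the groups were within 1.5-fold; of the 29 it was 25, and 23 of those. Against control A, 29 and 18 transcripts behaved so for etoposide and 44 and 29 for imatinib. The leading transcript of a locus, by mean level, was the same with cisplatin and in control B at 5810 of 6687 loci with 2 or more transcripts (86.9%). It was the same in all 6 libraries at 4003 (59.9%), and at 38 (0.568%) it was the same within each group and different between them. Transcript levels were also less precise than locus levels, with 63.4% of 95% intervals within 2-fold against 83.9%, from 79.1% for single transcripts of a locus to 35.6% for those of loci with 10 or more.

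As whole profiles, cisplatin and control B libraries were not set apart from each other. The median absolute difference between 2 libraries, on the log2(FPKM + 1) scale, was 0.165 to 0.18 among cisplatin libraries, 0.174 to 0.191 among control B libraries and 0.156 to 0.198 between these groups. From cisplatin libraries to those of control A, etoposide and imatinib it was 0.38 to 0.566, and from control B libraries 0.373 to 0.584. The nearest pair of all 15 libraries, cisplatin 3 and control B 3 (0.156; Pearson r = 0.973 across loci, which share the library), crossed the groups. Deviations from the group means in this pair correlated at r = 0.695 over the 10368 loci of at least 300 bp and 10 FPKM, whereas those of cisplatin 2 and control B 3 stood at -0.703. Such deviations cancel out within a group, so a positive correlation in some pairs brings negative ones in others.

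Cisplatin 3 moved several counts. Without it 2 loci passed, XLOC_002607 and XLOC_016320, both named after their values were seen (limma, adjusted p = 0.0344 and 0.0437). XLOC_002607 spans 187 bp, was listed at 0 in the control B libraries and in cisplatin 3, and measured 209 and 110 FPKM in the other cisplatin libraries. XLOC_016320 measured 52.2, 36.2 and 67.4 FPKM in control B, against 11.8 in cisplatin 3 and a listing of 0 in the remaining cisplatin libraries. The loci with an unadjusted p under 0.05 became 1055 without cisplatin 3, against 674 with all libraries.

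**Figure D5:**
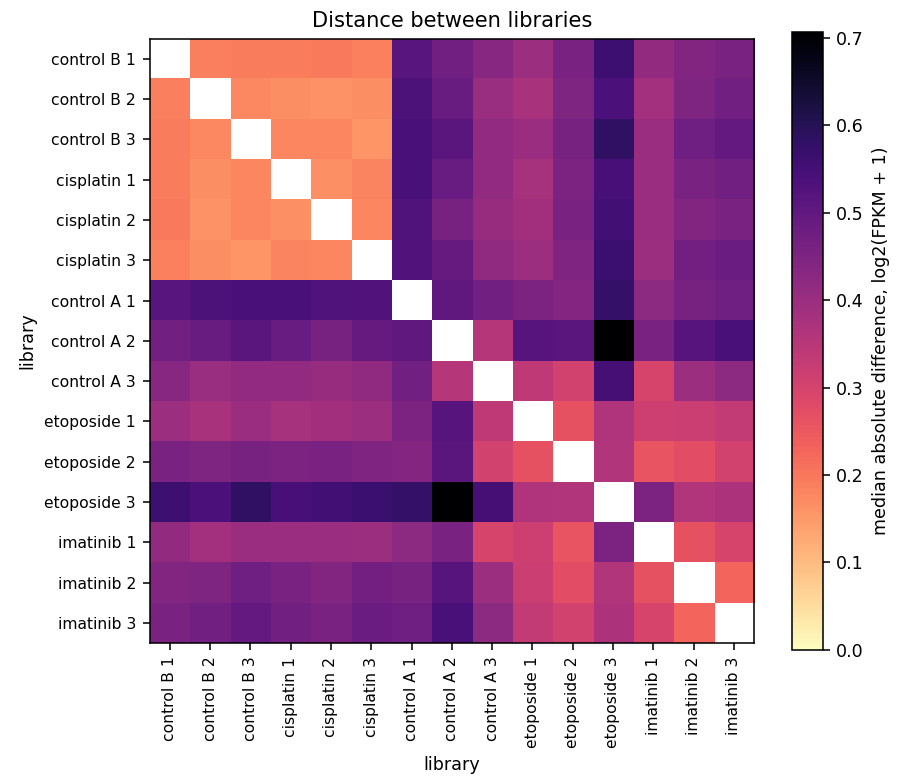
Median absolute difference in log2(FPKM + 1) over 18098 loci for each pair of the 15 libraries; lighter squares are nearer. Control B and cisplatin libraries form 1 light block, from 0.156 to 0.198, in which the groups are not set apart.

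Counts over whole libraries did not set the groups apart either. Loci listed at 0 numbered 119, 115 and 177 in control B and 140, 124 and 228 with cisplatin (two-sided exact permutation test, p = 0.5). Median locus levels were 14.13 ± 0.323 FPKM in control B and 14.32 ± 0.595 with cisplatin (SD, n = 3; exact permutation p = 0.8). Of 12 such summaries, the smallest exact p was 0.3, and a test of 3 against 3 cannot go below 0.1; adjusted over the 12, the smallest was 0.873. The spread within groups was alike, with a median SD per locus of 0.152 for cisplatin and 0.16 for control B, and cisplatin had the larger SD at 47.5% of loci.

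In a fit of all 15 libraries the median absolute difference from control B was 0.10 for cisplatin, against 0.38 for etoposide and 0.34 for imatinib from control A. On that fit 0 loci were called for cisplatin (223, or 1.23%, at an unadjusted p under 0.05), 2797 (15.5%) for etoposide and 1635 (9.03%) for imatinib. The groups of these comparisons also differ in spread, since control A had a median SD of 0.384, against 0.16 in control B, and neither counts of calls nor median absolute differences are on an equal footing. A test of the difference between comparisons that share no library called 1 locus (0.00553%) against etoposide and the same locus against imatinib. Far more loci than the 905 of 18098 expected if none differed lay below an unadjusted p of 0.05, at 3484 and 2731. The number called depended on control A, rising to 4 and 6 without control A 1 and to 972 and 409 without control A 3. Without cisplatin 3 it was 2 and 3. Control A 1 listed 1375 loci at 0, against 164 in control A 2 and 75 in control A 3.

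The called locus, XLOC_017486 (scaffold03167, 2226 to 2386), spans 160 bp. It measured 31.95, 44.35 and 59.54 FPKM in control B and 16.54, 19.01 and 44.42 with cisplatin, groups that overlap. It was listed at 0 in all 3 control A libraries and measured 26.8 to 52 FPKM with etoposide and 22.5 to 25.2 with imatinib. The difference between comparisons was -6.20 for etoposide and -5.44 for imatinib (limma, adjusted p = 0.000315 and 0.00139). With loci under 300 bp left out no locus passed in either contrast (count 0).

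Among the longer loci with the smallest p in these contrasts, 3 had overlapping cisplatin and control B values. XLOC_004708 (scaffold01117, 16768 to 22940) measured 129.2, 141.1 and 143.7 FPKM in control B and 134, 152.9 and 144.3 with cisplatin, while the etoposide difference from control A was -1.19 (95% interval of the contrast 0.80 to 1.70; limma, adjusted p = 0.158). XLOC_009673 (scaffold01732, 36195 to 37063) measured 19.8 ± 2.821 FPKM in control B and 17.98 ± 0.8639 with cisplatin (SD, n = 3), against a difference of 1.27 for etoposide (contrast -1.40; adjusted p = 0.158 by limma). XLOC_016680 (scaffold02921, 56256 to 58979) was at or under 1.44 FPKM in all 6 libraries and at 12.4 to 25 FPKM with imatinib (contrast -3.75; adjusted p = 0.053 by limma).

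In 4 loci the cisplatin values lay on the far side of control B from the direction of imatinib, and in 3 of them also of etoposide, a pattern that choosing them by the contrast favours. XLOC_012355 (scaffold02070, 40527 to 43108) measured 24.2, 25.7 and 22.7 FPKM in control B and 29.4, 36.3 and 30.8 with cisplatin, and 12.5 to 17.3 over the etoposide and imatinib libraries against 25.9 to 30.65 in control A. XLOC_006105 (scaffold01264, 49384 to 49761) measured 194.2, 174.4 and 205.9 FPKM in control B and 146.4, 152.2 and 132.1 with cisplatin, against at least 320.5 with either other drug and at most 201 in control A. XLOC_018494 (scaffold03510, 4580 to 8393) measured 117.7, 85.6 and 87.3 FPKM in control B and 61.3, 51.9 and 50.3 with cisplatin, against 26.7 to 48.45 in control A and 75 to 116.6 with imatinib, while its etoposide values of 43.2 to 46.8 lay within the control A range. XLOC_015621 (scaffold02649, 2117 to 3104) measured 16.75 ± 1.998 FPKM in control B and 20.82 ± 1.524 with cisplatin (SD, n = 3), against 11.67 to 15.35 with imatinib and 30.62 to 35.8 in control A. With all libraries and no block, weights or quantile normalization, none of the 4 passed in the contrasts (limma, adjusted p from 0.0547 to 0.158). Nor did any in the comparison with control B (adjusted p of 0.999 by limma at each). After quantile normalization XLOC_018494 passed in the contrast with imatinib (limma, adjusted p = 0.0236). Fitted on the 12 libraries of that contrast, XLOC_015621 and XLOC_016680 passed (limma, adjusted p = 0.0371 for each). With the replicate block, XLOC_018494 passed in the contrast with imatinib at an unchanged -2.17 (limma, adjusted p = 0.0304). Leaving out control A 3 brought all 7 of these longer loci past the threshold in the contrast that named them (limma, adjusted p from 0.0121 to 0.0219). XLOC_018494 also passed without control A 1 (0.0146) and XLOC_016680 without cisplatin 3 (0.0379).

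Loci called for the other drugs against control A had median differences near 0 with cisplatin against control B, whose means come from other libraries. The calls came from the fit of all 15 libraries, so the spread they rest on included the cisplatin and control B libraries. The 1381 loci higher with etoposide, by a median of 0.81, had a median cisplatin difference of 0.00, and 46 of them (3.33%) had an unadjusted p under 0.05 with cisplatin, against 3.72% of all loci. The 1416 loci lower with etoposide, by a median of 0.92, stood at 0.02 with cisplatin, with 37 higher and 11 lower at that p, where all loci gave 329 and 345. For imatinib the medians were -0.01 over 749 loci that were higher and -0.02 over 886 that were lower, with 9 higher and 19 lower, and 14 higher and 19 lower, at that p. Cisplatin differences were above 0 in 48.8% and 55.6% of the loci higher and lower with etoposide and in 45.8% and 43.1% of those for imatinib, against 53% of all loci. In all 4 lists 92.8% to 96.2% of cisplatin intervals lay within 2-fold, against 83.9% of all loci. That excess is partly built in, since a spread shared by all 15 libraries favours calls at loci that vary little in any group. Across 18098 loci, which are not independent, the cisplatin differences correlated with those of etoposide at r = 0.05 and of imatinib at r = 0.03.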

How the data were processed

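Per the labels' protocols, 320 ng of RNA went into each poly(A) library, by a kit that keeps the strand. The authors deposited FPKM per transcript; the submitters' processing notes name Cufflinks 2.2.1 with Cuffdiff, TopHat2 2.0 with Bowtie2 2.1, Trim Galore and CASAVA 1.8.0. The genome build, like settings and scaling, was not given in the sources used here. Positions are as the deposited table gives them; 5762 loci share their interval with another locus.

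FPKM were summed per locus, and features averaging 1 FPKM or more across all libraries were tested on log2(FPKM + 1) by limma 3.58.1 (R 4.3.3; trended variance, Benjamini-Hochberg adjustment over all features, threshold 0.05). Cisplatin against control B was fitted on its 6 libraries, as the other groups were more variable; contrasts with other drugs used all 15. Ratios of a transcript to the others of its locus were fitted likewise, with the variance trend on the mean level of the transcript. The fits were tested on simulated data with independent normal noise in each library. Libraries that deviate together, as described below, were not simulated, so the calls are not checked for that setting. Named features were the 2 in each direction with the smallest p, spanning at least 300 bp, without overlap between groups (contrasts: whatever the overlap), the 4 most abundant loci, loci at 0 in 1 group, and any called. Groups, members and lists were chosen with earlier results of these data known. No gene list could be matched.

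Same-numbered cisplatin and control B libraries deviated together from their group means across loci (r = 0.244, 0.215 and 0.505), so a fit with the replicate number as a block is given beside results it changes. This pairing was read off the data, since no label states it, and cisplatin 2 correlated more with control B 1 (0.277).

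Depth is not given. Ratios of low FPKM pile up at what may be equal read numbers; at that ratio (9.96% to 13.8% of ratios within 0.02 on the log2 scale, next best 5.64% to 7.36%) depth relative to control B 1 was 96.6% to 129%, any scaling by the authors included. No counting interval is given.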

Additional observations from a re-analysis of the deposited data

Results flagged for a closer look

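The difference between cisplatin against control B and etoposide against control A was tested directly, and XLOC_017486 passed at -6.20 on the log2(FPKM + 1) scale (limma, adjusted p = 0.000315). The same locus passed at -5.44 for imatinib (limma, adjusted p = 0.00139). All 3 control A libraries listed it at 0, and it spans 160 bp.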

How the results depend on the processing

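The 15176 loci with an interval within 2-fold of 18098 became 13476 with all 15 libraries fitted, the lowest over the same loci, and 16697 with a pseudocount of 5, the highest; of the 13856 loci of at least 5 FPKM it was 11916. The 0 loci called for cisplatin against control B became 1 with a pseudocount of 0.1 and 0 to 2 with 1 library left out. The 2 transcripts became 9 and 1 with pseudocounts of 0.1 and 5, 28 without a filter, 1 with all 15 libraries fitted, 0 with the replicate block and 0 to 3 with 1 library left out. The 1 transcript of the 15-library fit, TCONS_00021064, was not among the 2. The 3 ratios became 6 with a pseudocount of 0.1, 1 without a filter, 0 with 15 libraries or the replicate block, and 0 to 5 with 1 library left out. The replicate block changed no other call for cisplatin against control B. The contrast with etoposide, 1 locus, gave 0 without loci under 300 bp and 1 to 972 with 1 library left out. The contrast with imatinib, 1 locus, gave 0 with a pseudocount of 5 or without loci under 300 bp, 4 with its 12 libraries, 2 with the replicate block, 3 after quantile normalization, 202 with library weights and 1 to 409 with 1 library left out. Small differences changed sign at XLOC_012387 (0.00746 with library weights, and from -0.0817 to 0.0703 with 1 library left out) and, after quantile normalization, at XLOC_010493 (-0.264), XLOC_008510 (-0.0884) and XLOC_008509 (-0.202). The cause was not tested. FPKM carry no read counts, so depth limits at single loci are unknown.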
